A study of Mus musculus with 2 samples.

Results

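The stefin A gene cluster of the mouse was described in 2 cultures of myeloid-derived suppressor cells, immature myeloid cells known for restraining T cells. Its members were taken by symbol from the feature tables: Stfa1, Stfa2, Stfa3, Stfa2l1, Csta2, Csta3, Cstdc4 and Cstdc5, 8 of the 32285 genes listed. They were chosen with earlier results of these data known, in which several were low in the selinexor culture, so the difference between the cultures is given here as a description. The 2 groups were a culture with 50 nM selinexor, an inhibitor of the nuclear export receptor exportin 1, and a culture with the vehicle DMSO. Both received recombinant IL-6 and GM-CSF at 40 ng/mL each, and both were harvested on day 4, tagged with feature barcodes, sorted for live CD11b+ cells and pooled before capture on the 10x Genomics platform. Each group held 1 library, so no value has a replicate check, no test was run, and every interval covers counting error only. Strain, age and starting cells were not given in the sources used here.

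Stefins are small proteins of the cytosol that block papain-like cysteine proteases such as the cathepsins, by lying across the active site with a hairpin loop. Humans carry a single stefin A gene, CSTA, while the mouse carries a row of young copies beside each other. In mouse bone marrow their transcripts are known from cells of the neutrophil lineage.

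All members lie on chromosome 16 (GRCm38, the assembly that mm10 names), in GENCODE M21 coordinates. The plus strand carries Stfa2l1 (36156811 to 36161953), Cstdc4 (36184212 to 36188111), Csta3 (36210403 to 36217788), Csta2 (36221468 to 36257444) and Stfa1 (36276951 to 36285373). The minus strand carries Cstdc5 (36359382 to 36367748), Stfa2 (36403992 to 36408457) and Stfa3 (36450537 to 36455392). The gene models have 3 exons, except Csta2 with 5, and encode either 291 coding bases (Stfa1, Csta2, Csta3, Cstdc4, Cstdc5) or 309 (Stfa2, Stfa3, Stfa2l1). Some of the copies are nearly the same gene. Over their coding bases Stfa1 and Cstdc5 were 97.9% identical, Csta2 and Cstdc4 96.9%, and Stfa2 and Stfa2l1 96.4%, while no other of the 28 pairs passed 88.3%. The same 60 coding bases of each member are printed here in GENCODE M21 sequence, since they hold the codons of the protease-binding loop motif (Gln-x-Val-x-Gly) and show how the copies pair off. Capitals mark bases that differ from Cstdc4. The stretch covers coding positions 112 to 171, or 130 to 189 in Stfa2, Stfa3 and Stfa2l1.

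Cstdc4: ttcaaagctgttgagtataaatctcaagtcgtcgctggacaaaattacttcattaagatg
Csta2: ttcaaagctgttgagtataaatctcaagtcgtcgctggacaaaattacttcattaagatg
Stfa1: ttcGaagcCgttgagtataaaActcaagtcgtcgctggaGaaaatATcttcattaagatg
Cstdc5: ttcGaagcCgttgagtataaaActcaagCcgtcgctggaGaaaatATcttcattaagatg
Stfa2: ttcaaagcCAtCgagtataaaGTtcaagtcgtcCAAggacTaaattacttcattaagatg
Stfa2l1: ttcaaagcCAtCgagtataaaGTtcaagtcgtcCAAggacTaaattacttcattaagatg
Stfa3: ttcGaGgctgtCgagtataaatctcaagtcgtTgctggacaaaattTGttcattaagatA
Csta3: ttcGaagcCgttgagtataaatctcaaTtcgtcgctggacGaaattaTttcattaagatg

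Cstdc4 and Csta2 could not be told apart in this stretch, nor could Stfa2 and Stfa2l1, and Cstdc5 differed from Cstdc4 at 7 bases against 6 in Stfa1. Of all 60-base windows along a member's transcript, 31.0% in Cstdc4, 26.4% in Cstdc5, 19.0% in Csta2, 17.9% in Stfa1, 16.9% in Stfa2l1 and 10.2% in Stfa2 also occurred in another gene of the locus. No window of Stfa3 or Csta3 did. The order differed toward the end of the transcripts. Of the last 200 windows, Cstdc5 shared 96, Stfa1 81, Stfa2 42, Cstdc4 and Csta2 37 each, and Stfa2l1 4. How the authors' counting placed reads that fit several copies was not stated in the sources used here. For this reason the 3 near-identical pairs are also given as sums, and the values of single members of a pair are uncertain.

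The sequence before the start sites followed the pairs only in part. In RefSeq windows from 250 bases before to 50 after the start, Stfa1 and Cstdc5 were 96.4% identical and Stfa2 and Stfa2l1 92.9%, but Csta2 and Cstdc4 only 54.3%. Csta2 matched every other member at 49.8% to 55.4%. Its window lies at the outer end of a long gene model with 5 exons and 3 coding transcripts. Whether that window is the counterpart of the other start regions was not tested. The 250 bases before the start of 1 alike pair and of Cstdc4 and Csta2 are printed because these members had the lowest ratios among the abundant ones, or shared a start region. They are RefSeq sequence on GRCm38.p6, read on the gene's strand, whose start sites can differ from those of GENCODE. Capitals mark matches, on either strand, to a C/EBP motif (TTNNGCAA), a PU.1 motif (GAGGAA) or a STAT motif (TTCNNNGAA).

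Stfa1, chr16:36276898-36277147, plus strand: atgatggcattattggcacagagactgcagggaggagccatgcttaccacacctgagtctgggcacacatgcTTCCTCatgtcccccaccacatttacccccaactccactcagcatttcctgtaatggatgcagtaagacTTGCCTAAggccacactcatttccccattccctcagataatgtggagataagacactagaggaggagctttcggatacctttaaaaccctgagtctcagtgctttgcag
Cstdc5, chr16:36367571-36367820, minus strand: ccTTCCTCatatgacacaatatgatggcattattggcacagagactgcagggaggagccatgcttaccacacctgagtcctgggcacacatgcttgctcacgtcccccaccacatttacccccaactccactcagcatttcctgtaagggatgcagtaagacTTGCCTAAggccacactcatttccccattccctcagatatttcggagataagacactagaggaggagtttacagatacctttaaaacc
Cstdc4, chr16:36183962-36184211, plus strand: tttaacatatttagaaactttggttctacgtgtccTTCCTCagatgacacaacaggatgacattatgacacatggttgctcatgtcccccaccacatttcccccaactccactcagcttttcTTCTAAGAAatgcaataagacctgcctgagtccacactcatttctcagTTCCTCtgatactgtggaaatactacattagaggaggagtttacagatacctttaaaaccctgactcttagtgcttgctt
Csta2, chr16:36221312-36221561, plus strand: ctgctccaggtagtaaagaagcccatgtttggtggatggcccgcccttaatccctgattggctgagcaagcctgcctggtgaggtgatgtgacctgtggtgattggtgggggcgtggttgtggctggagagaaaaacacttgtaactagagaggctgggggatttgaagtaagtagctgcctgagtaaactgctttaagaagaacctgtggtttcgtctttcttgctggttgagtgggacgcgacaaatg

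In the full windows the C/EBP letters occurred in Stfa1, Csta3 and Cstdc5, against 10.8% of 32851 mouse promoters. The PU.1 letters occurred in 6 members, all but Csta2 and Csta3, against 28.3% of promoters. The STAT letters occurred in Cstdc4 alone, against 8.30%. A TATA box (TATAAA, 13.6% of promoters) and an NF-kB motif (1.47%) matched no member. Such matches describe letters in a window and say nothing of binding.

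The selinexor library kept 1962 cells and 12771314 UMIs (unique molecular identifiers, counted molecules), and the DMSO library 1742 cells and 14209188 UMIs. Median depth per cell was 3912 UMIs in selinexor and 7786.5 in DMSO cells. The label of myeloid-derived suppressor cells was checked against marker genes: S100a8, a calcium-binding protein of these cells, was found in 99.1% of selinexor and 99.7% of DMSO cells, and Itgam, which encodes CD11b, in 68.4% and 75.9%. Ly6g, a surface marker of mature neutrophils, had only 49 UMIs in selinexor and 97 in DMSO cells, and Arg1, the arginase of suppressive cells, 13 and 50. Xpo1, which encodes the drug's target, had 2559 UMIs in selinexor and 940 in DMSO cells, a log2 ratio of 1.58.

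Stefin A transcripts were less abundant in the selinexor library. The 8 members together had 34200 UMIs there, 2678 CPM (UMIs scaled to a library total of 1000000), against 147451 UMIs or 10377 CPM in the DMSO library. That is 3.88-fold lower, a log2 ratio of -1.95 (-1.97 to -1.94), where every log2 ratio given here is log2(CPM + 1) in selinexor minus the same in DMSO with its 95% counting interval. Over the 10387 genes with at least 50 UMIs in both libraries together, called measured here, the median ratio was 0.13. With 2-fold as the mark, 7 of 8 members were lower in the selinexor library, where 1.12% of all measured genes were, and 0 were higher, where 1.97% were; the members were chosen from this contrast, so nothing is read from that count.

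The most abundant pair per coding base was Csta2 and Cstdc4. Cstdc4, a cystatin domain gene of the cluster, had 11590 UMIs (907.5 CPM) in selinexor and 64119 (4512.5 CPM) in DMSO cells, a log2 ratio of -2.31 (-2.34 to -2.29). By UMIs it was the 147th most abundant gene of the selinexor library and the 13th of the DMSO library. Csta2 had 2900 UMIs (227.1 CPM) in selinexor and 14678 (1033 CPM) in DMSO cells, with a ratio of -2.18 (-2.24 to -2.13). As 1 unit, which does not depend on how shared reads were split between them, the pair had 14490 UMIs in selinexor and 78797 in DMSO cells, a ratio of -2.29.

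Cstdc5 and its near copy Stfa1 came next. Cstdc5 had 6507 UMIs (509.5 CPM) in selinexor and 32702 (2301 CPM) in DMSO cells, with a ratio of -2.17 (-2.21 to -2.14). Stfa1 had 2959 UMIs (231.7 CPM) in selinexor and 11010 (774.9 CPM) in DMSO cells, with a ratio of -1.74 (-1.80 to -1.68). Together they stood at -2.05, on 9466 UMIs in selinexor and 43712 in DMSO cells.

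Stfa2 and Stfa2l1 were lower by a smaller factor. Stfa2 had 3024 UMIs (236.8 CPM) in selinexor and 8165 (574.6 CPM) in DMSO cells, a ratio of -1.28 (-1.34 to -1.22). Stfa2l1 had 4941 UMIs (386.9 CPM) in selinexor and 13312 (936.9 CPM) in DMSO cells, a ratio of -1.27 (-1.32 to -1.23). The pair as a unit had 7965 and 21477 UMIs in selinexor and DMSO cells, and a ratio of -1.28.

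Stfa3 and Csta3, which share no window with another copy, marked the ends of the range. Stfa3 had 2269 UMIs (177.7 CPM) in selinexor and 3262 (229.6 CPM) in DMSO cells, a ratio of -0.37 (-0.45 to -0.29). Csta3, a scarce member, had 10 UMIs in selinexor and 203 in DMSO cells, 0.783 and 14.3 CPM. The added 1 CPM draws its ratio of -3.10 toward 0; without it the ratio was -4.19 (-5.27 to -3.28). Among all 10387 measured genes ordered from the lowest ratio, Csta3 stood 2nd, Cstdc4 9th, Csta2 10th, Cstdc5 11th, Stfa1 24th, Stfa2 58th, Stfa2l1 59th and Stfa3 933rd.

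**Figure D1:**
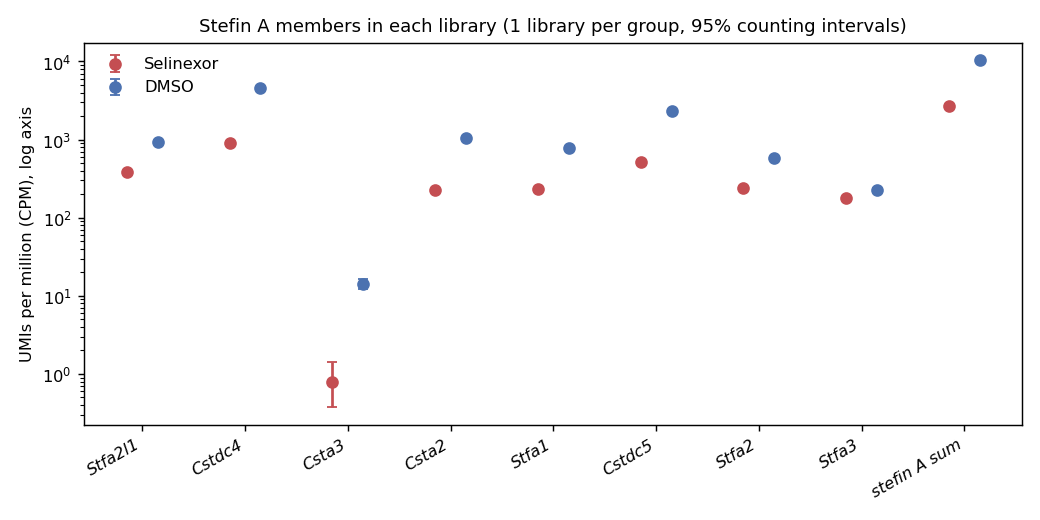
Level of each stefin A member and of their sum in the selinexor (red, left) and DMSO (blue, right) library, in CPM on a log axis, with 95% counting intervals that are often smaller than the points. Every member's selinexor point lies below its DMSO point, by the most for Csta3 (0.783 and 14.3 CPM) and the least for Stfa3 (177.7 and 229.6 CPM).

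Per coding base, Cstdc4 led in both libraries, with 39.8 UMIs per base in selinexor and 220.3 in DMSO cells, and Cstdc5 came next with 22.4 and 112.4. Behind them the order differed between the libraries. In selinexor cells Stfa2l1 (16.0 UMIs per base) was followed by Stfa1 (10.2), Csta2 (9.97), Stfa2 (9.79) and Stfa3 (7.34), and the 3 values from 10.2 to 9.79 lay close together. By UMIs not divided by length their order there was Stfa2 (3024), Stfa1 (2959) and Csta2 (2900). In DMSO cells Csta2 (50.4) was followed by Stfa2l1 (43.1), Stfa1 (37.8), Stfa2 (26.4) and Stfa3 (10.6). Csta3 was last in both, at 0.0344 in selinexor and 0.698 in DMSO cells. As shares of the summed UMIs, Cstdc4 made up 33.9% in selinexor and 43.5% in DMSO cells, while Stfa3 made up 6.63% and 2.21%.

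The size of the difference moved with the mix of cells compared. The 9 cell states with at least 20 cells in each library (described further on) were given the same weights in both libraries. The weight of a state was its mean share of cells over the libraries. The other 7 states were left out, among them state 2 with 37.2% of DMSO stefin A UMIs. The ratio of the sum was then -0.87. At least 2-fold lower were 3 members (Csta3 at -1.42, Cstdc4 at -1.49 and Cstdc5 at -1.11), against 2.35% of measured genes. Under that weighting Stfa1 stood at -0.51, Stfa2 at -0.03, Stfa2l1 at -0.48, Csta2 at -0.57 and Stfa3, above 0, at 0.28. Over whole libraries the summed markers of early neutrophils (primary granule) had 967 CPM in selinexor and 1869 CPM in DMSO cells, of the specific granule 11687 and 11249, of late neutrophils 1541 and 1433, of monocytes 2484 and 1308, and of dendritic cells 304 and 33.6. Every early neutrophil marker was lower in selinexor by CPM, but the other lists went both ways. Of the late neutrophil markers Mmp8, with most UMIs, Retnlg and Csf3r were higher, and Cxcr2, Il1r2, Trem3, Ly6g and Mmp9 lower. Of the specific granule, Ngp and Chil3 were higher and Ltf, Camp, Lcn2 and Cebpe lower. Monocyte markers but Ms4a6c and, slightly, Csf1r were higher, with most UMIs of Ly6c2 and Fn1. Ccl22, with most dendritic cell UMIs, was higher and Cd209a lower. The part of these markers in the library-wide ratio was not tested.

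It moved with the UMIs per cell as well. Among cells under 2000 UMIs the sum had 984 CPM in 783 selinexor cells and 4746 CPM in 314 DMSO cells, a ratio of -2.27. Of these, 609 selinexor cells lay in state 0, a late neutrophil-like state, and 171 DMSO cells lay in state 1, another one. In this group Stfa3 (2.05, on 60 selinexor and 6 DMSO UMIs), Stfa2 (0.94, on 45 and 10) and Cstdc5 (0.48) were above 0. Below 0 were Stfa2l1 (-2.90), Cstdc4 (-2.86), Csta2 (-2.75), Stfa1 (-0.34) and Csta3 (0 selinexor and 3 DMSO UMIs). From 2000 to 5000 UMIs the levels were close, 6896 CPM in 269 selinexor and 7971 CPM in 293 DMSO cells, with a ratio of -0.21. Here Stfa1 (0.96), Stfa2 (0.71), Stfa3 (1.81), Stfa2l1 (0.17) and Cstdc5 (0.26) were above 0, and Cstdc4 (-1.09) and Csta2 (-0.74) below. Of the members measured in this group only Cstdc4 was at least 2-fold lower, against 3.71% of measured genes. Csta3, on 0 selinexor and 4 DMSO UMIs, had too few to be measured. From 5000 to 10000 UMIs the sum had 6115 CPM in selinexor and 11055 CPM in DMSO cells, a ratio of -0.85. Over 10000 UMIs it had 1427 CPM in 588 selinexor cells and 10610 CPM in 636 DMSO cells, a ratio of -2.89. In that group 227 selinexor cells belonged to state 3, an unnamed state with 315 selinexor and 7 DMSO cells in all, whereas 156 DMSO cells were macrophage-like and 153 belonged to state 2, an unnamed state with 19 selinexor and 335 DMSO cells in all.

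**Figure D2:**
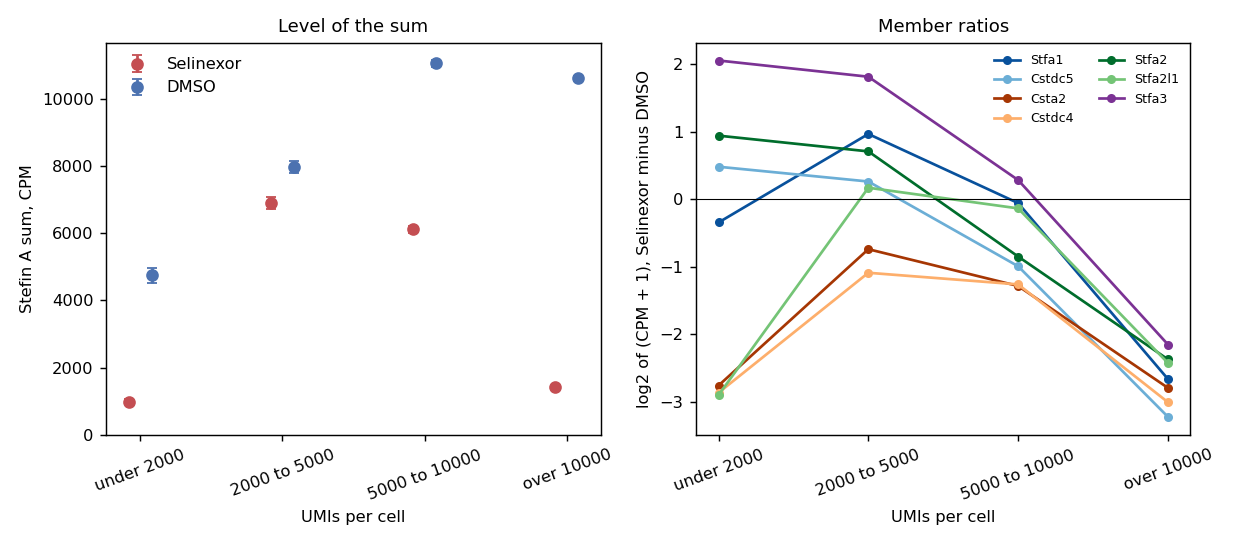
Left, the stefin A sum in CPM (linear axis, 95% counting intervals) in selinexor (red) and DMSO (blue) cells grouped by their UMIs. Right, the log2 ratio of each member but Csta3, selinexor minus DMSO, in the same groups. The sum is close in cells with 2000 to 5000 UMIs (6896 and 7971 CPM), where 5 members lie above 0, and furthest apart over 10000 UMIs (1427 and 10610 CPM).

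Cells of both libraries were clustered together without the stefin A genes, which gave 16 states. A state was named only where markers of a cell type led it. Levels were compared in the 9 states with at least 20 cells in each library. In 6 of the 9 the sum was at least 2-fold lower in selinexor cells, in 0 it was 2-fold higher, and in 1 it lay above 0. The order of the levels differed between libraries. Among compared states, state 8 (intermediate neutrophil-like), state 4 (unnamed) and state 1 (late neutrophil-like) were the highest in selinexor cells, with 16055, 8641 and 6127 CPM. In DMSO cells state 8 (16673 CPM) and state 7 (intermediate neutrophil-like, 14338 CPM) led, ahead of states 1 and 5 at 10460 and 10364 CPM, which lay close together.

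**Figure D3:**
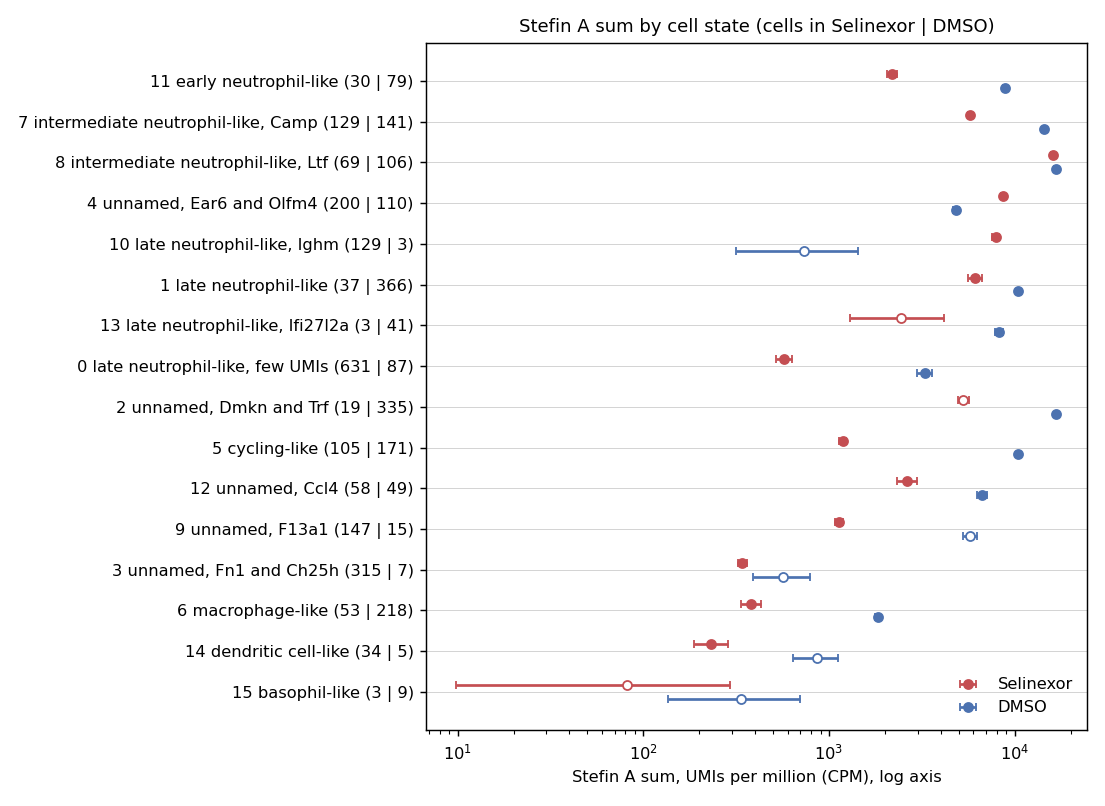
Stefin A sum in CPM (log axis, 95% counting intervals) by cell state, selinexor in red above DMSO in blue, with the number of cells in each library behind the name. Open points rest on under 20 cells. State 8 has nearly the same level in both (16055 and 16673 CPM), state 4 is higher in selinexor (8641 and 4839 CPM), and the cycling-like state 5 is the furthest apart among compared states (1187 and 10364 CPM).

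Across the compared neutrophil-like states, listed from early through intermediate to late by their names, the ratios had no steady course. They were -2.02 in state 11, -1.33 in state 7, -0.05 in state 8, -0.77 in state 1 and -2.51 in state 0. The order between states 7 and 8, and between states 1 and 0, was not derived from the data. State 11 was early neutrophil-like, led by the primary granule genes Ctsg, Mpo and Elane. Its sum had 2175 CPM in 30 selinexor cells and 8822 CPM in 79 DMSO cells, a ratio of -2.02 (-2.12 to -1.93). The selinexor level rested on 1 of the 30 cells, which held 728 of 981 stefin A UMIs (74.2%), while the highest DMSO cell held 968 of 10268 (9.43%). With the highest cell of each library left out, an alternative chosen after seeing the data, the level was 573 CPM in 29 selinexor cells and 8061 CPM in 78 DMSO cells, a ratio of -3.81 (-4.00 to -3.63). Stfa1 and Cstdc5 made up 79.7% of stefin A UMIs in selinexor and 69.2% in DMSO cells, and without those 2 cells 69.6% of 253 and 67.8% of 9300 UMIs. Stfa1 had 449 UMIs in selinexor and 2895 in DMSO cells (-1.32), Cstdc5 333 and 4211 (-2.29), and Cstdc4 154 and 2662 (-2.74). Without the highest cells Stfa1 stood at -2.69, Cstdc5 at -5.60 and Cstdc4 at -4.11. All 5 measured members were at least 2-fold lower there, against 3.32% of measured genes, and 0 were 2-fold higher, against 1.56%.

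State 7 was intermediate neutrophil-like, led by the granule genes Camp and Fcnb and by Cebpe, a transcription factor of granule formation. It was also dividing, with Mki67 or Top2a in 96.9% of selinexor and 97.2% of DMSO cells. The sum had 5719 CPM in 129 selinexor cells and 14338 CPM in 141 DMSO cells, a ratio of -1.33 (-1.36 to -1.29). Cstdc5 differed the most, with 1841 UMIs in selinexor and 8878 in DMSO cells (-2.23), ahead of Stfa1 (-1.36) and Stfa2 (-1.05), the 3 of 7 measured members past 2-fold against 1.07% of measured genes. Cstdc4 (-0.92), Stfa3 (-0.76), Csta2 (-0.54) and Stfa2l1 (-0.42) were below 0 by less, and 0 members were 2-fold higher, against 1.19% of measured genes.

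State 8 was intermediate neutrophil-like too, led by Ltf, Camp, Ngp and Cd177, and there the sums nearly met. It had 16055 CPM in 69 selinexor cells and 16673 CPM in 106 DMSO cells, a ratio of -0.05 (-0.10 to -0.01) that turned to 0.059 with cells weighted equally and 0.16 with cells thinned to 1000 UMIs. Within the sum the members did not move alike. Stfa1 (620 UMIs in selinexor and 475 in DMSO cells, 1.01) and Stfa2l1 (1173 and 952 UMIs, 0.93) were higher in selinexor cells, and Stfa2 (-0.46) and Cstdc5 (-0.36) lower. Members of a near-identical pair thus had opposite signs, and the pairs as units stayed near 0, at -0.13 for Stfa1 with Cstdc5, 0.24 for Stfa2 with Stfa2l1 and -0.18 for Csta2 with Cstdc4. Past 2-fold, 0 of 7 measured members were lower, against 2.71% of measured genes, and 1 was higher, against 1.57%.

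State 4 was the only compared state with a higher stefin A level in selinexor cells. It was led by Ear6, Olfm4, Retnlg and Ltf, and 5 of the 6 specific granule markers were at least 2-fold above other cells. It stayed unnamed because 1 marker each of 3 lists was among its 10 leading genes, Ear6 of eosinophils, Ltf of the specific granule and Retnlg of late neutrophils. Of the eosinophil markers, Siglecf had 1 UMI in selinexor and 2 in DMSO cells of the state, and Prg2, Epx, Ccr3 and Il5ra had 0 in both. Ear6 itself had 339 UMIs (362 CPM) in selinexor and 85 (157 CPM) in DMSO cells. The sum had 8092 UMIs (8641 CPM) in 200 selinexor cells and 2621 UMIs (4839 CPM) in 110 DMSO cells, a ratio of 0.84 (0.77 to 0.90). Under other ways of defining states the highest ratio of any state was 0.077 with fewer clusters (Leiden resolution 0.5), 0.20 with expression centred per library, 0.74 with marker gates, 0.84 with the stefin A genes kept and 1.55 with more clusters (resolution 1.5). Stfa1 had 442 UMIs in selinexor and 24 in DMSO cells (3.38, interval 2.82 to 4.07), Cstdc5 1524 and 266 (1.73) and Stfa2l1 1376 and 304 (1.39). These were 3 of 7 measured members at least 2-fold higher, against 4.09% of measured genes, and 0 were 2-fold lower, against 2.09%. Stfa2, the near copy of Stfa2l1, went the other way, with 1057 UMIs in selinexor and 744 in DMSO cells (-0.28), so that the pair stood at 0.43. Stfa1 with Cstdc5 as a unit had 1966 UMIs in selinexor and 290 in DMSO cells, a ratio of 1.97. The median UMI count per cell in this state was 4474 in selinexor and 4721 in DMSO cells, and Mki67 or Top2a was found in 29.5% of selinexor and 16.4% of DMSO cells. The 6 specific granule markers summed to 42562 CPM in selinexor and 43566 CPM in DMSO cells, but went both ways. Chil3 (8194 and 6364 CPM) and Ngp (19235 and 17672 CPM) were higher in selinexor cells, Camp (2898 and 2863 CPM) was nearly even, and Ltf (3739 and 5278 CPM), Lcn2 (8369 and 11212 CPM) and Cebpe (127 and 177 CPM) were lower. The part of Ear6, of the granule genes and of dividing cells in the ratio was not tested.

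Late neutrophil-like cells, marked by genes such as Cxcr2, Mmp9 and Csf3r, fell into states that differed between the libraries. State 1, led by Mmp9 and Cxcr2, held 37 selinexor and 366 DMSO cells, with 6127 CPM in selinexor and 10460 CPM in DMSO cells (-0.77, interval -0.90 to -0.64). Cstdc4 (-2.52) and Cstdc5 (-2.18) were 2-fold lower among 7 measured members, against 18.1% of measured genes, and Stfa1 (2.42, on 25 selinexor and 62 DMSO UMIs) and Stfa2 (1.06) were 2-fold higher, against 2.58%. Without the highest cell of each library Stfa2 stood at 0.52. State 10, led by Mmp9 and Ighm, held 129 selinexor and 3 DMSO cells and had 7886 CPM in selinexor cells; with states 1 and 10 as 1 state the ratio was -0.46. State 0, with Csf3r among its leading genes, had few UMIs per cell, a median of 1050 in selinexor and 1123 in DMSO cells. Its sum had 575 CPM in 631 selinexor cells and 3271 CPM in 87 DMSO cells, a ratio of -2.51 (-2.71 to -2.31), on 409 and 408 UMIs. Of its 4 measured members, 3 were at least 2-fold lower, against 2% of measured genes: Stfa2l1 (-3.66), Cstdc4 (-2.85) and Csta2 (-2.57). None of the 4 was 2-fold higher, where 7.38% of measured genes were.

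With all cells kept, the largest difference among compared states was in the cycling-like state 5, led by Top2a, Anln and other genes of division. The sum had 1187 CPM in 105 selinexor cells and 10364 CPM in 171 DMSO cells, a ratio of -3.13 (-3.19 to -3.06). Without the highest cell of each library state 5 stood at -3.23, and state 11 was lower at -3.81. All 7 measured members were at least 2-fold lower, against 1.65% of measured genes, between Stfa1 at -3.49 (105 UMIs in selinexor and 1749 in DMSO cells) and Stfa3 at -1.40 (82 and 320 UMIs). In this state 2.63% of measured genes and 0 members were 2-fold higher. Depth per cell was alike, with a median of 16652 UMIs in selinexor and 15324 in DMSO cells.

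The macrophage-like state 6, led by the complement genes C1qa and C1qb, had the lowest level of the 9 compared states in both libraries. The sum had 382 CPM in 53 selinexor cells and 1828 CPM in 218 DMSO cells, a ratio of -2.26 (-2.45 to -2.08). All 7 measured members were at least 2-fold lower, against 5.01% of measured genes, and 0 were 2-fold higher, against 1.87%. Csta2 had 138 UMIs in selinexor and 1468 in DMSO cells (-1.42), and its near copy Cstdc4 76 and 2449 (-3.01). Csta2 thus had more UMIs than Cstdc4 in selinexor cells and fewer in DMSO cells. State 12, unnamed, low in UMIs and led by the chemokines Ccl4 and Ccl3, had 2634 CPM in 58 selinexor cells and 6647 CPM in 49 DMSO cells (-1.34), with 4 of 5 measured members at least 2-fold lower, against 6.41% of measured genes. This ratio was -0.48 in the cells that passed a stricter filter (1000 genes, a mitochondrial share below 5%), and -0.51 with cells thinned to 2000 UMIs. The highest cell held 35.2% of the stefin A UMIs in selinexor and 28.6% in DMSO cells. Without both, the sum stood at -1.42, and Cstdc5, 1 of the 4 lower members, kept 7 UMIs in selinexor and 7 in DMSO cells. Stfa3, on 30 selinexor and 10 DMSO UMIs, had too few to be measured there, and 0 measured members were 2-fold higher, against 5.31%.

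**Figure D4:**
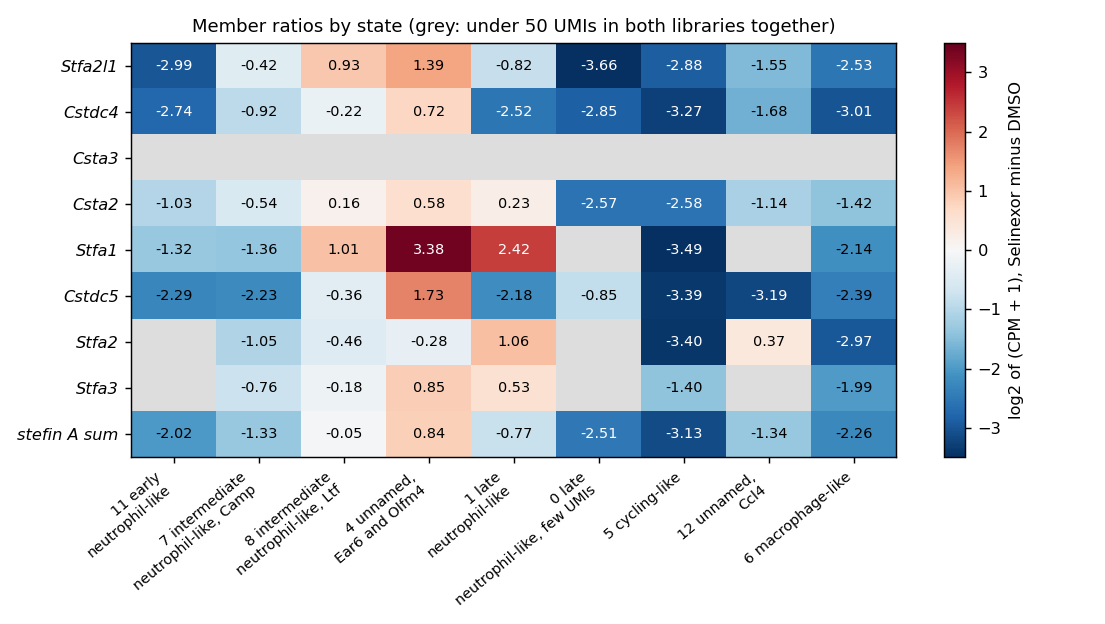
Log2 ratio of each stefin A member and of their sum, selinexor minus DMSO, in the 9 compared states, with the value in each cell of the grid, blue for lower and red for higher in selinexor and grey where a member had under 50 UMIs. The cycling-like state 5 is blue in every measured member, while state 4 is red in every measured member but Stfa2 (-0.28).

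The other 7 states had under 20 cells in a library and are given as levels. Where nearly all cells of a state came from 1 library, state and library cannot be told apart. State 2, unnamed and led by Dmkn and Trf, held 19 selinexor and 335 DMSO cells, with 5297 CPM in selinexor and 16710 CPM in DMSO cells, and held 37.2% of all DMSO stefin A UMIs. It also held 137 of the 203 DMSO UMIs of Csta3, and state 5 another 45. State 3, led by Fn1 and Ch25h, held 315 selinexor and 7 DMSO cells, with only 341 CPM in selinexor and 564 CPM in DMSO cells. State 9, led by F13a1, had 1128 CPM in 147 selinexor cells and 5739 CPM in 15 DMSO cells. The dendritic cell-like state 14 had 233 CPM in 34 selinexor cells and 858 CPM in 5 DMSO cells.

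Across the compared states each of the 7 members measured there lay above 0 in some states and below 0 in others. Cstdc4 was at least 2-fold lower in 6 of 9 states and above 0 in 1 of them, state 4. Cstdc5 was at least 2-fold lower in 6 of 9 and 2-fold higher in 1, also state 4. Stfa2l1 and Csta2 were 2-fold lower in 5 of 9 each. Stfa1 was 2-fold lower in 4 and 2-fold higher in 3 of the 7 states that measured it, Stfa2 lower in 3 and higher in 1 of 7, and Stfa3 lower in 2 and higher in 0 of 6. Csta3 was measured in 0 of the 9. Without the highest cell of each library, Stfa1 in state 8 (0.83) no longer passed 2-fold, Cstdc4 in state 4 did (1.07), and Stfa3 in state 1 turned to -0.72.

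The make-up of the stefin A sum differed between cell states. The joint share of Stfa1 and Cstdc5 was highest among compared states in state 11, in selinexor cells mostly on the 1 cell described above, and in the dividing state 7 it was 35.6% in selinexor and 55.0% in DMSO cells. Stfa2 and Stfa3 were a larger part of state 4 than of the whole libraries. There Stfa2 made up 13.1% in selinexor and 28.4% in DMSO cells, and Stfa3 12.5% and 12.4%. In selinexor cells this was not particular to state 4. Stfa2 and Stfa3 made up 13.3% and 12.6% in state 10, and 26.3% and 9.02% in state 1. Csta2 had a large share in the macrophage-like and dendritic cell-like states, with 54.5% in selinexor and 30.6% in DMSO cells of the macrophage-like state. This was not particular to them, as Csta2 made up 32.9% in selinexor cells of state 3, led by Fn1, and 26.7% in those of state 1. In the dendritic cell-like state Csta2 had 46 of the stefin A UMIs in selinexor cells (51.7%), beside 30 of Cstdc4, and 44 in DMSO cells (83.0%), beside 5 of Cstdc4. In the whole libraries Cstdc4 outnumbered Csta2, with 11590 against 2900 UMIs in selinexor and 64119 against 14678 in DMSO cells. Over the 19 sums of state and library with at least 50 cells, which share libraries and depth, the levels of Stfa2 and Stfa3 had a Pearson correlation of 0.97, Stfa2l1 and Cstdc4 0.94, Stfa1 and Cstdc5 0.93, and Stfa1 and Csta2 0.26.

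**Figure D5:**
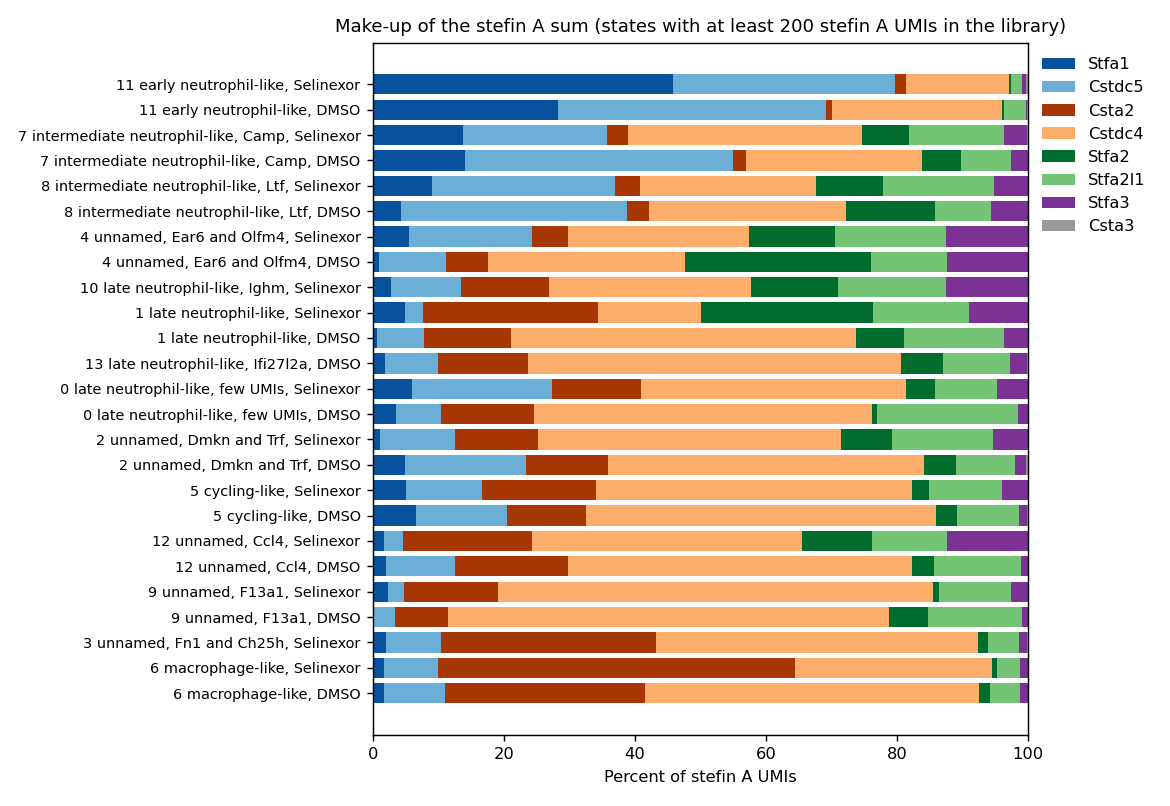
Share of each member in the stefin A UMIs, in percent, for each state and library with at least 200 such UMIs, selinexor above DMSO. Stfa1 and Cstdc5 (blue shades) fill most of the early neutrophil-like state 11 (79.7% in selinexor, where 1 cell held 74.2% of the UMIs, and 69.2% in DMSO), and Csta2 (dark orange) is widest in the macrophage-like state 6 (54.5% and 30.6%).

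Stefin A RNA was concentrated in few cells. The top 10% of cells held 81.3% of stefin A UMIs in the selinexor library and 61.6% in the DMSO library. It took 59 selinexor cells (3.01%) and 117 DMSO cells (6.72%) to reach 50% of the UMIs. The median cell had 1 stefin A UMI in selinexor and 12 in DMSO cells, and the highest cell 956 and 2113. Of the 59 selinexor cells, 16 lay in state 7, 14 in state 4 and 14 in state 8. Of the 117 DMSO cells, 42 lay in state 2, 26 in state 7 and 23 in state 5.

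Because depth differed, cells were thinned to 1000 UMIs, which left out 322 selinexor and 96 DMSO cells with fewer. At least 1 stefin A UMI was then found in 723 of 1640 selinexor cells (44.1%, Clopper-Pearson 95% interval 41.7 to 46.5%) and 1113 of 1646 DMSO cells (67.6%, 65.3 to 69.9%). Without thinning the shares were 68.8% in selinexor and 85.5% in DMSO cells. At least 5 UMIs remained in 14.6% of thinned selinexor and 40.5% of thinned DMSO cells. Among 34 thinned dendritic cell-like selinexor cells, which lie outside the neutrophil lineage, 6 (17.6%) had a UMI. Of the macrophage-like cells 17.0% had one in selinexor, close to that share, and 45.6% in DMSO. How much free RNA adds to these shares was not tested. The cycling-like state stood at 32.4% in selinexor and 81.1% in DMSO cells, the early neutrophil-like state at 23.3% and 59.5%, and state 7 at 57.4% and 68.6%. State 8 (84.1% and 70.8%), state 4 (73.7% and 55.05%) and state 12 (62.9% of 35 and 51.2% of 41 cells) had the higher share in selinexor cells. The intervals overlapped in state 8 (73.3 to 91.8% and 61.1 to 79.2%) and widely in state 12 (44.9 to 78.5% and 35.1 to 67.1%). In state 12 the order turned at 5 or more UMIs, with 8.57% of selinexor and 22.0% of DMSO cells.

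In cells with at least 2000 UMIs and with all states pooled, the 21 pairs among the 7 members other than Csta3 were all positively correlated. The Pearson correlation of their levels had a median of 0.45 over 1179 selinexor cells, range 0.24 to 0.72, and a median of 0.45 over 1428 DMSO cells, range 0.30 to 0.73. Stfa2 and Stfa3 (0.72 in selinexor and 0.72 in DMSO cells) and Stfa2l1 and Cstdc4 (0.66 and 0.73) were the highest. Within the single states examined the median ran from 0.28 (105 DMSO cells of state 4) to 0.55 (106 DMSO cells of state 8). The lowest pair was Csta2 and Cstdc5 in DMSO cells of state 4, at -0.0008. Cells share depth and library in these values, and state in those within a state, so they are a description.

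Stefins are known to inhibit papain-like cathepsins, and legumain, a lysosomal protease of another family, was listed beside them. Of 11 listed genes, 9 were measured. At 1.5-fold, 0 were lower in selinexor cells, against 3.86% of measured genes, and 3 were higher, against 9.82%, with a median ratio of 0.44 beside 0.13 for all measured genes. Ctss, the cathepsin of antigen processing, had 6285 UMIs in selinexor and 4598 in DMSO cells (0.60). Lgmn, the endopeptidase legumain, had 578 and 345 UMIs (0.87), and Ctsk, a cathepsin best known from bone-resorbing cells, 56 and 15 (1.39). With cells weighted equally, or with the same cell mix, 1 listed gene was 1.5-fold higher. Ctsb (0.52) and Ctsc, which activates the serine proteases of neutrophil granules (0.44), were above 0, while Ctsh (-0.01), Ctsl (-0.02), Ctsz (-0.18, interval -0.23 to -0.14) and Ctso (-0.21) lay at or below it. Ctsf (40 and 9 UMIs) and Ctsw (1 and 0) were not measured.

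The measured related inhibitors outside the cluster stayed within 1.5-fold over the whole libraries. Of 6 other cystatins and stefins, 3 were measured and 0 passed 1.5-fold either way, with a median of 0.11. Cstb, which encodes stefin B, the nearest relative, had 10194 UMIs in selinexor and 9966 in DMSO cells (0.19). Cst3, the secreted cystatin C, had 15364 and 22238 UMIs (-0.38, interval -0.41 to -0.35), close to the ratio of the member Stfa3 (-0.37). Cst7, cystatin F of immune cells, had 206 and 212 (0.11). By state the ratios went both ways, with Cst3 at -0.68 in state 5 and 0.23 in state 6. Cstb stood at 1.15 in state 11 and -0.55 in state 6. Among other stefin A genes of the locus, Cstdc6 had 32 UMIs in each library and Csta1 0 in both. Gm15845, which overlaps Cstdc5 on the opposite strand, had 0 UMIs in selinexor and 3 in DMSO cells.

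Over the same 19 sums, the 10 genes whose log2 level was most like that of the stefin A sum, out of 5470 genes with at least 500 UMIs, included S100a9 (Pearson correlation 0.877), S100a8 (0.872), Lcn2, an iron-binding granule protein (0.822), and Cd177, a neutrophil surface protein (0.774). Arhgdib, Lipg, Mapk13, Ifitm6 and Gal followed at 0.755 to 0.764. Ranked on the 10 selinexor sums alone, 6 of the 10 genes were among the 10 most alike, and on the 9 DMSO sums alone, 2. S100a8 and S100a9 had lower ratios in selinexor cells too, at -0.68 and -0.61, as did Lcn2 at -0.49. Dmkn, which led the stefin-rich state 2, had a correlation of 0.32, and 220 UMIs in selinexor against 1358 in DMSO cells.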

How the data were processed

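Single-cell RNA counts were analysed from 2 libraries of mouse cultures. The authors deposited raw UMI counts per gene and cell, made with Cell Ranger 6.1.2 against mm10, per the submitters' processing notes and the file headers. Neither the annotation release nor the treatment of reads that fit several copies was given in the sources used here. Tag counts (12 tags) stayed out of gene totals, each library had 1 dominant tag, and 0 barcodes were shared. The members and gene lists were chosen with earlier results of these data known.

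Barcodes needed 200 detected genes and a mitochondrial share under 10%, which removed 22 of 1989 selinexor and 41 of 1784 DMSO barcodes. Scrublet in scanpy 1.11.5 called 5 selinexor and 1 DMSO doublets, 0.162% of 3710 cells, too few for doublets to count as removed. The 2 libraries were clustered jointly without 10 stefin A genes (the 8 members, Csta1 and Cstdc6), by the Leiden method at resolution 1.0 (leidenalg 0.10.2) on a graph of 15 neighbours in 30 principal components of 2000 variable genes. A state took a cell type's name where 3 or more of its markers reached 10 UMIs and 2-fold over other cells, and more of its markers than of any other type were among the 10 leading genes. Names of states are rebuilt here and may differ from the study's.

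Counts were summed per library and state and scaled to CPM. Ratios use log2(CPM + 1). Intervals are exact Poisson, conditional binomial or Clopper-Pearson at 95% and cover counting error only. With 1 library per group no test was possible between cultures. Genes named are the members, other stefin A genes and the overlapping gene of the locus, the measured cathepsins and cystatins, the 10 genes most like the sum, markers of described states, and the check genes. Some genes that this rule takes are not reported here. Alternatives covered cell filters, TMM and median-of-ratios scaling (edgeR 4.0.16, R 4.3.3), equal cell weights, thinning, pseudocount, cell mix, depth, dividing cells and state definitions. Positions and coding sequence come from GENCODE M21 and start regions from RefSeq, in which 8 of 8 members matched.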

Additional observations from a re-analysis of the deposited data

Results flagged for a closer look

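State 4, unnamed and led by Ear6 and Olfm4, differed in direction from the other compared states. Its stefin A sum had a log2 ratio of 0.84 (selinexor minus DMSO), while the other 8 states lay below 0, down to -3.13 in the cycling-like state 5. Within state 4, Stfa1 stood at 3.38 on 442 selinexor and 24 DMSO UMIs, Cstdc5 at 1.73 and Stfa2l1 at 1.39, although each was at least 2-fold lower over the whole libraries. Under other state definitions the highest ratio of any state ran between 0.077 and 1.55. With 1 library per group these differences between states were not tested.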

How the results depend on the processing

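The library-wide ratio of the stefin A sum (-1.95) stayed below 0 under all 16 alternatives. It was -2.09 with TMM and -2.11 with median-of-ratios scaling, -1.70 with cells weighted equally, -1.57 and -1.31 with cells thinned to 1000 and 2000 UMIs, and -1.82 without cells holding Mki67 or Top2a. With the same cell mix over the 9 compared states, the others left out, it was -0.87. By UMIs per cell it was -0.21 from 2000 to 5000, -0.85 from 5000 to 10000 and -2.89 above. Without state 0, chosen after seeing the data, it was -1.90.

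The count of members at least 2-fold lower, 7, became 6 with cells weighted equally or thinned to 1000 UMIs. It became 5 with cells thinned to 2000 UMIs or without cells holding Mki67 or Top2a. The share of all genes was not computed for these settings, so nothing is read from these counts. Over 10000 UMIs the count was 8, where 1.48% of measured genes were, and with the same cell mix 3, where 2.35% were. It was 2 at 2000 to 5000 UMIs, where 3.71% of measured genes were, and 3 at 5000 to 10000 UMIs, where 1.53% were. Both of the last counts include Csta3, which had under 50 UMIs there (0 selinexor and 4 DMSO UMIs, then 3 and 39). The sign of Stfa3 turned to 0.053 with cells weighted equally, 0.21 and 0.38 with cells thinned to 1000 and 2000 UMIs, 0.28 with the same cell mix, 1.81 at 2000 to 5000 and 0.28 at 5000 to 10000 UMIs. At 2000 to 5000 UMIs Stfa1 turned to 0.96, Stfa2 to 0.71, Stfa2l1 to 0.17 and Cstdc5 to 0.26. State 8 turned to 0.059 with cells weighted equally, and to 0.16 and 0.086 with cells thinned to 1000 and 2000 UMIs. The cause of these turns was not tested.

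The number of states with a 2-fold lower sum, 6 of 9, was 5 to 7 under 15 alternatives, including 5 other ways of defining states. State 4 kept a ratio of 0.80 to 1.12 under 9 alternatives that kept the states; under the others the highest ratio of any state was 0.077 to 1.55. Without the highest cell of each library, chosen after seeing the data, state 11 moved to -3.81. States 0, 5, 6, 7 and 11 stayed below -1 under their 9 alternatives each. State 12 ranged from -1.87 to -0.48. The thinned share of cells with a stefin A UMI differed by -23.5 percentage points, and by -16.7 at each cell's own depth. Of the list of cathepsins and cystatins, 3 genes were 1.5-fold higher, and 1 with cells weighted equally or with the same cell mix. Of the 10 genes most like the sum, 2 were among the 10 on DMSO sums only and 6 on selinexor sums only.

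No paired analysis was possible because each group held 1 library. The alternatives with all barcodes and with called doublets kept were not run by state, since those cells have no state. With 1 library per group, the spread between cultures is unknown. Csta3 had under 50 UMIs in every compared state, too few for a ratio at this depth.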
